A study of Homo sapiens with 6 samples.

Results

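The 10 genes described here are HSPA5, HSP90B1, DNAJB9, DNAJC3, SDF2L1, SEL1L, PDIA4, CALR, MANF and XBP1, which encode chaperones, folding enzymes and quality-control proteins of the endoplasmic reticulum (ER) and a transcription factor that acts on their genes. They were chosen by gene symbol, with the results of the present comparison already known. Their difference between the groups is therefore given as a description without a test. All 10 were found among the 16571 genes of the count table, and all 10 were among the 10695 genes with enough reads to be analysed.

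Secreted and membrane proteins fold inside the ER with the help of chaperones, lectins and disulphide isomerases, and proteins that do not fold are returned to the cytosol and degraded. When unfolded protein builds up, the membrane sensors ATF6, IRE1 (gene ERN1) and PERK (gene EIF2AK3) start the unfolded protein response. ATF6 is cut by Golgi proteases to release a transcription factor, IRE1 removes a short stretch from XBP1 mRNA so that an active XBP1 protein is translated, and PERK slows translation and favours synthesis of ATF4. ATF6 binds an ER stress response element (ERSE) in the promoters of chaperone genes, and XBP1 acts on the same and related elements.

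The libraries were made from A2780, a human ovarian cancer cell line that the labels call serous. The 3 control libraries (pGIPZ-NC) came from cells infected with lentivirus carrying the pGIPZ control vector, and the 3 knockdown libraries (shUSP39) from cells infected with lentivirus carrying a short hairpin RNA against USP39, a spliceosome component. Both groups thus share the cell line and the lentiviral infection, and which of the study's hairpins was used is not given in the labels. The series calls the samples biological triplicates without saying that they came from separate infections, so the spread between libraries may be partly technical. USP39 itself is not analysed here, so the depletion was not checked in these libraries. Of 10 ovarian serous and epithelial markers, 9 had a row, and only KRT18, a simple-epithelium keratin, was above 1 CPM (counts per 1e+06, on library sizes scaled by the trimmed mean of M values) in both groups. EPCAM and PAX8 had at most 6 counts in any library, CDH1 and MSLN at most 1, and SOX17 at most 3. The serous label was thus not borne out by these markers, and WT1 is not analysed here. Such low counts do not show absence, since it is not stated whether reads shared by several transcripts were counted. KRT18 differed between the groups (22.4 CPM on average in pGIPZ-NC and 32.9 CPM in shUSP39), KRT8 went from 0.979 to 0.0312 CPM, and MUC16 ranged from 1 to 150 counts with its highest value in shUSP39 2. Their part in the results was not tested. Library totals ranged from 28294819 to 32939264 counts. The libraries shUSP39 2 and shUSP39 3 stood apart in the number of genes with at least 1 count, 15446 and 14890, against 12662 to 12819 in the other 4.

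Since the 10 genes share known regulators, their promoters are shown ahead of the values. The window from 250 bases before to 50 bases after the start site was taken from RefSeq (GRCh38.p14) for each gene and searched on both strands for the ERSE, spelled CCAAT, then 9 bases of any letter, then CCACG. The exact element was present in HSPA5, HSP90B1, CALR and XBP1. Of the 8714 analysed genes with a window, 15 held it (0.172%), these 4 among them. The 10 genes were chosen as ER chaperones and targets of ATF6 or XBP1, factors that act on this element and related ones. The frequency of such elements among the 10 is therefore no independent result. The upstream stretches of these 4 promoters are given 5′ to 3′ along the gene, with the fixed letters of each exact element in capitals.
HSPA5, chr9:125241361-125241439, minus strand: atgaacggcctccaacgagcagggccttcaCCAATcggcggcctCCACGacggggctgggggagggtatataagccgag
HSP90B1, chr12:103930186-103930369, plus strand: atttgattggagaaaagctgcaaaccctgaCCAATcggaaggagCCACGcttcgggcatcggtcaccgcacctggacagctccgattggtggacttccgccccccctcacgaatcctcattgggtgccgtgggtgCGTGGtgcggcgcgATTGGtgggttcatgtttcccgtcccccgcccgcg
CALR, chr19:12938359-12938432, plus strand: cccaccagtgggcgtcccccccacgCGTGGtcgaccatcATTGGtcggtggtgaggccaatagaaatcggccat
XBP1, chr22:28800573-28800651, minus strand: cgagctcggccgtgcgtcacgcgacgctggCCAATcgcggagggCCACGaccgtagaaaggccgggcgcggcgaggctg

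The element lay close to the start site in XBP1 (bases -52 to -34) and HSPA5 (-66 to -48) and farther upstream in CALR (-225 to -207, opposite strand). HSP90B1 held 2 exact copies, at -194 to -176 on the gene's strand and at -89 to -71 on the opposite strand. In the other 6 genes the closest 19 bases differed from the element at 1 or 2 of its 10 fixed letters. They are printed below on the strand of the gene with the matching letters in capitals.
DNAJC3, chr13:95677004-95677022, plus strand: CCtATcagcgcgaaCCACG
SDF2L1, chr22:21642120-21642138, plus strand: CCAATcaaaaccctCCtCG
SEL1L, chr14:81534042-81534060, minus strand: CCAATtagctggggCCAtG
DNAJB9, chr7:108569786-108569804, plus strand: gCAAcaacagttttCCACG
MANF, chr3:51385132-51385150, plus strand: CCAATgagggagggCagCG
PDIA4, chr7:149028708-149028726, minus strand: CCAATcagaagggggCACc

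With at most 1 mismatch, the element was found in 7 of the 10 genes and in 2.47% of all genes with a window. With at most 2 mismatches it was found in all 10, but also in 26.5% of all genes, so a match at this level is common. The related element ERSE-II (ATTGG, 1 base of any letter, CCACG) was present in SDF2L1 alone among the 10, against 0.115% of all genes, and the XBP1-type element TGACGTGG was present in none of the 10 windows, against 1.16%. The search was added after the expression values were known, and a match in letters does not show that a factor was bound.

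The ER Hsp70 chaperone and its partners differed most between the groups. HSPA5 (BiP; chr9:127997132-128003661, minus strand, GRCh37) is the Hsp70 of the ER lumen, which binds unfolded chains and holds the sensors inactive. It was measured at 3526, 3483 and 3366 CPM in pGIPZ-NC and at 5875, 5796 and 5793 CPM in shUSP39. The groups did not overlap, and the shUSP39 libraries lay within a narrow range. The fitted log2 fold change was 0.75 (SE 0.03), a 1.68-fold higher level. In bulk RNA, more RNA per cell and more cells with that RNA cannot be told apart.

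DNAJB9 (ERdj4; chr7:108210311-108215294, plus strand) is a J-domain partner of BiP that helps deliver misfolded proteins for degradation and represses IRE1. Its level was 21.99, 18.5 and 20.2 CPM in pGIPZ-NC and 48.6, 42.6 and 39.2 CPM in shUSP39. This was the largest ratio among the 10 genes, at a log2 fold change of 1.10 (SE 0.09) or 2.15-fold, and its libraries were also the most spread in the shUSP39 group. The counts behind it were 571 to 701 in pGIPZ-NC and 1160 to 1556 in shUSP39.

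DNAJC3 (p58IPK; chr13:96329393-96447242, plus strand) is another J-domain partner of BiP, known as an inhibitor of PERK family kinases. It was measured at 138, 139 and 136 CPM in pGIPZ-NC and at 205, 206 and 198 CPM in shUSP39. Its log2 fold change was 0.56 (SE 0.04), or 1.47-fold. SDF2L1 (chr22:21996591-21998588, plus strand) is a small ER protein that works with BiP and its J-domain partners. Its values were 307, 318 and 306 CPM in pGIPZ-NC against 481, 478 and 502 CPM in shUSP39. The log2 fold change was 0.65 (SE 0.04), or 1.57-fold. In both genes the libraries of a group lay close together and far from the other group.

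**Figure D1:**
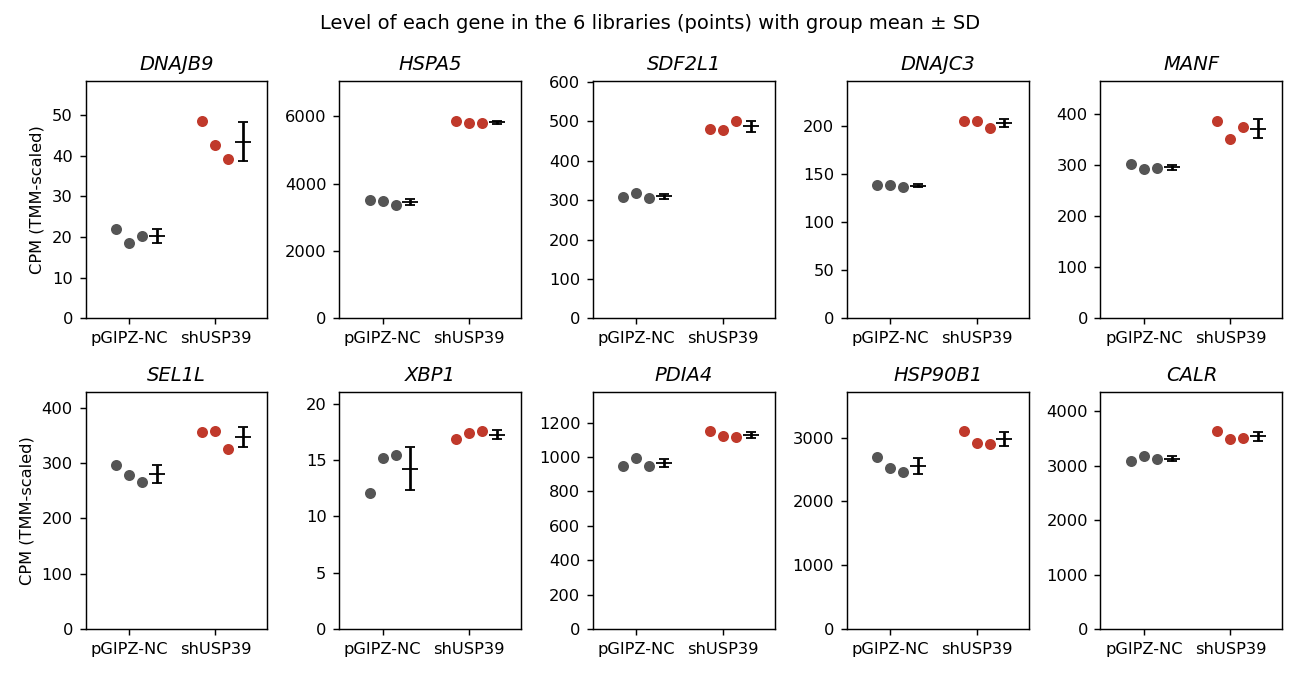
Level of each of the 10 genes in CPM (vertical axes, each starting at 0) in the 3 pGIPZ-NC libraries (grey) and the 3 shUSP39 libraries (red), with the group mean ± SD beside the points. In every panel the red points lie above the grey points, with the widest relative gap in DNAJB9 and the narrowest in HSP90B1.

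The other chaperones and folding enzymes differed by smaller ratios. HSP90B1 (chr12:104323885-104347709, plus strand) encodes the Hsp90 of the ER, which folds Toll-like receptors and integrins. It was measured at 2700, 2526 and 2457 CPM in pGIPZ-NC and at 3102, 2924 and 2906 CPM in shUSP39. The log2 fold change was 0.22 (SE 0.03), and the lowest shUSP39 library was above the highest control library.

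CALR (calreticulin; chr19:13049392-13055303, plus strand) is the soluble calcium-binding lectin that holds glycoproteins during folding. Its level was 3094, 3170 and 3131 CPM in pGIPZ-NC and 3633, 3486 and 3505 CPM in shUSP39. At a log2 fold change of 0.18 (SE 0.03) or 1.13-fold, this was the smallest ratio of the 10. PDIA4 (ERp72; chr7:148700154-148725754, minus strand) is a protein disulphide isomerase. It was measured at 951, 993 and 951 CPM in pGIPZ-NC and at 1150, 1123 and 1117 CPM in shUSP39. Its log2 fold change was 0.23 (SE 0.03).

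MANF (chr3:51422722-51426828, plus strand) is a small secreted ER protein that binds BiP and protects cells under ER stress. Its level was 302, 293 and 293 CPM in pGIPZ-NC against 387, 351 and 375 CPM in shUSP39. The log2 fold change was 0.33 (SE 0.04), or 1.25-fold. SEL1L (chr14:81937891-82000197, minus strand) is the adaptor of the HRD1 ubiquitin ligase in ER-associated degradation. It was measured at 296, 278 and 265 CPM in pGIPZ-NC and at 357, 357 and 325 CPM in shUSP39. Its log2 fold change was 0.31 (SE 0.04), and in both genes the shUSP39 libraries were the higher ones without overlap.

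XBP1 (chr22:29190543-29196585, minus strand) encodes the transcription factor of the IRE1 branch. It was measured at 12.1, 15.2 and 15.5 CPM in pGIPZ-NC and at 16.9, 17.4 and 17.6 CPM in shUSP39, from 385 to 540 counts per library. Although the groups did not overlap, pGIPZ-NC 1 lay well below the other 2 control libraries. The log2 fold change was 0.28 (SE 0.11) with all libraries and 0.17 without pGIPZ-NC 1, so that this library decided much of the value.

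The stretch that IRE1 removes from XBP1 mRNA is 26 bases long. The annotation places it at chr22:29192116-29192141 (GRCh37, minus strand), in exon 4 of 5 of the unspliced form. It is shown in capitals with 20 bases on either side, along the gene's strand. The first base in capitals and the base after the last are both G. The same spliced mRNA thus results if the stretch starts a single base later, and the capitals do not fix the cut sites.
XBP1, chr22:29192096-29192161, minus strand: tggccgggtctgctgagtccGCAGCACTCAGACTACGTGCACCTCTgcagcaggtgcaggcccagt

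The only XBP1 row of the count table belonged to the unspliced form. Spliced and unspliced XBP1 mRNA could therefore not be separated, and the XBP1 value is no measure of IRE1 activity. Whether reads shared by several transcripts were counted is not stated. Each of the 10 genes had a single row, and RefSeq now lists several messenger RNAs for XBP1 (4), PDIA4 (3) and SEL1L (2), whose levels would be too low if shared reads had been left out.

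In all 10 genes every shUSP39 library was above every pGIPZ-NC library, an arrangement held by 21.7% of the 10695 genes, while 22.5% were arranged the opposite way. This count restates how the genes were chosen. The median log2 fold change of the 10 was 0.32, and that of all genes was 0.01. With shUSP39 1 as the sole knockdown library, thus without the 2 libraries that stood apart, all 10 remained higher, with a median of 0.37 and a range of 0.21 to 1.27.

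**Figure D2:**
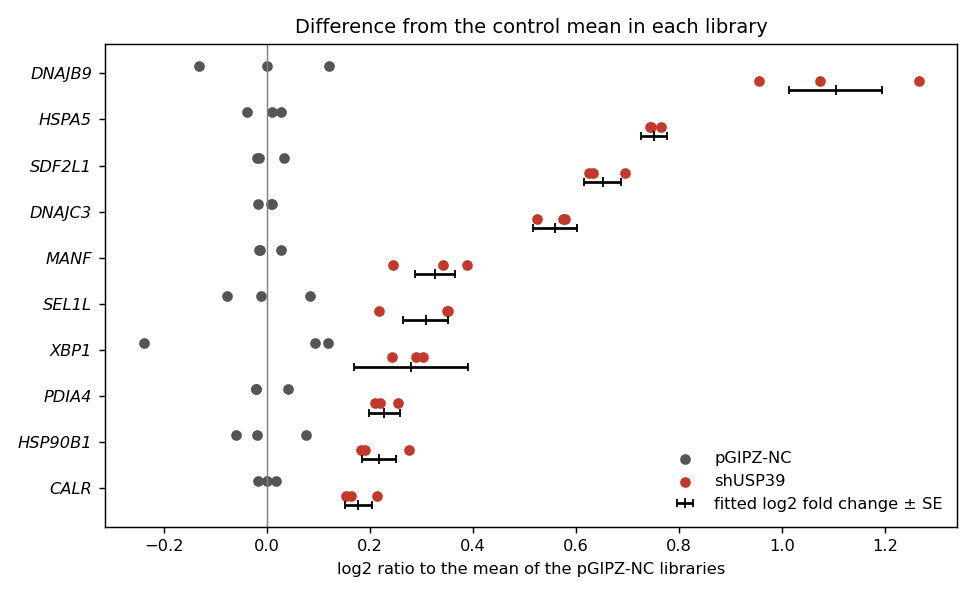
Log2 ratio of each library to the pGIPZ-NC mean (horizontal axis) for the 10 genes, with the fitted log2 fold change ± SE in black under the points. DNAJB9, HSPA5, SDF2L1 and DNAJC3 stand apart from the remaining 6 genes, whose shUSP39 ratios lie between 0.15 and 0.39.

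The genes could be ordered by the size of their difference. For DNAJB9, HSPA5, SDF2L1, DNAJC3 and MANF, in that order, the 3 shUSP39 ratios of each gene did not overlap those of the next. Their ranges were 0.96 to 1.27, 0.74 to 0.76, 0.62 to 0.70, 0.52 to 0.58 and 0.25 to 0.39 on the log2 scale. From MANF through SEL1L, XBP1, PDIA4, HSP90B1 and CALR, each gene overlapped the next, so the order of neighbours was not resolved. The CALR ratios, 0.15 to 0.21, did lie below every ratio of MANF, SEL1L and XBP1. The 4 genes with the largest ratios thus comprised BiP, both of its J-domain partners in the set and SDF2L1. The presence of an exact ERSE did not follow this order, as HSPA5 was near its top and CALR at its end.

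The levels of the 10 genes spanned more than 2 orders of magnitude per transcript length. In pGIPZ-NC, CALR was highest at 1647 ± 19.9 CPM per kilobase (SD, n = 3), followed by HSP90B1 at 920.5 ± 44.9 and HSPA5 at 882 ± 21.1, whose libraries overlapped. In shUSP39, HSPA5 at 1485 ± 11.9 CPM per kilobase was above HSP90B1 at 1070 ± 39.0 and below CALR at 1863 ± 42.1. SDF2L1, PDIA4 and MANF formed a middle tier of 376, 349 and 326 CPM per kilobase in pGIPZ-NC and 591, 408 and 408 in shUSP39. SEL1L at 35.3 and DNAJC3 at 24.6 CPM per kilobase were lower, and DNAJB9 at 8.40 ± 0.729 and XBP1 at 7.96 ± 1.06 were lowest and within their spread of each other in pGIPZ-NC. In shUSP39 DNAJB9 reached 18.04 ± 1.98 CPM per kilobase and lay above XBP1 at 9.65 ± 0.206. The places of XBP1, PDIA4 and SEL1L are uncertain, since their levels would be too low if shared reads had been left out. For XBP1 the length was that of the spliced form (1791 bases), while the counted unspliced form has 1850. Thus the largest ratio belonged to a gene of low level, while HSPA5 combined a high level with a large ratio.

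**Figure D3:**
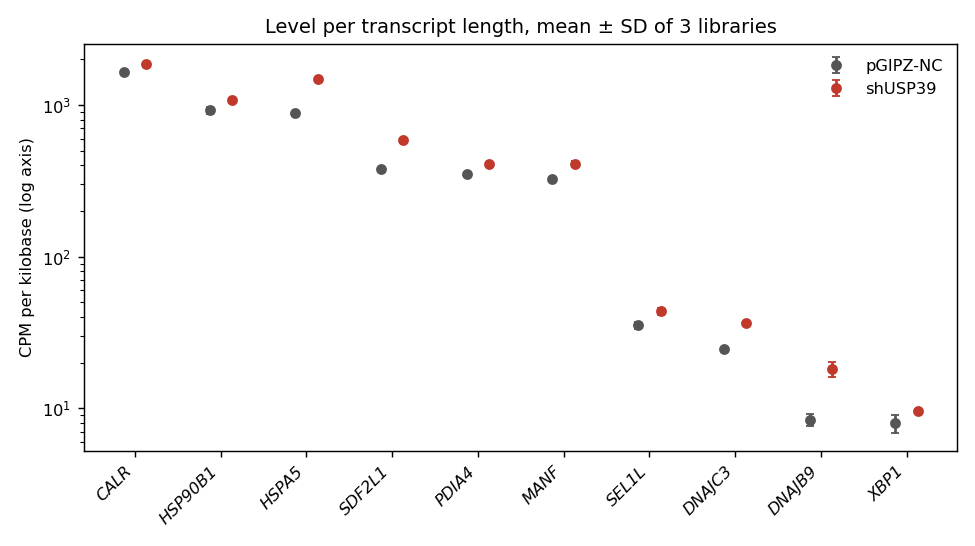
CPM per kilobase of transcript (log axis) for the 10 genes, ordered by their level in pGIPZ-NC, as the mean ± SD of the 3 libraries of each group. The mean of HSPA5 lies below that of HSP90B1 in pGIPZ-NC, where their libraries overlapped, and above it in shUSP39. DNAJB9 and XBP1 lie at the low end.

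Together the 10 genes took 1.12%, 1.11% and 1.09% of all counts in the pGIPZ-NC libraries and 1.536%, 1.496% and 1.486% in the shUSP39 libraries. HSPA5, HSP90B1 and CALR made up most of this share. HSPA5 alone made up 30.9% ± 0.161 of the counts of the 10 genes in the control libraries, against 39.0% ± 0.402 after knockdown (SD, n = 3). The share of CALR went from 28.04% ± 0.694 to 23.7% ± 0.115 and that of HSP90B1 from 22.9% ± 0.760 to 19.9% ± 0.358, although both were higher in absolute CPM.

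Other genes of ER folding were examined in 7 lists that did not include the 10, with 131 genes of which 110 were analysed. Of these 110, 27 rose and 20 fell at an adjusted p of 0.05 (edgeR quasi-likelihood test), which is 24.5% and 18.2% against 16.1% and 17.5% of all genes. Their median log2 fold change was 0.09. Over 2-fold lay 3 of these calls, the rises of TMX4 and DERL3 and the fall of FKBP7, against 6.81% of all genes (4.53% higher and 2.28% lower). The split depended on scaling, with 32 higher and 15 lower under upper-quartile scaling. Genes counted over few reads limit these lists, since PDIA6, a major isomerase, had a mean of 0.513 CPM in pGIPZ-NC and HERPUD1 is not analysed here.

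**Figure D4:**
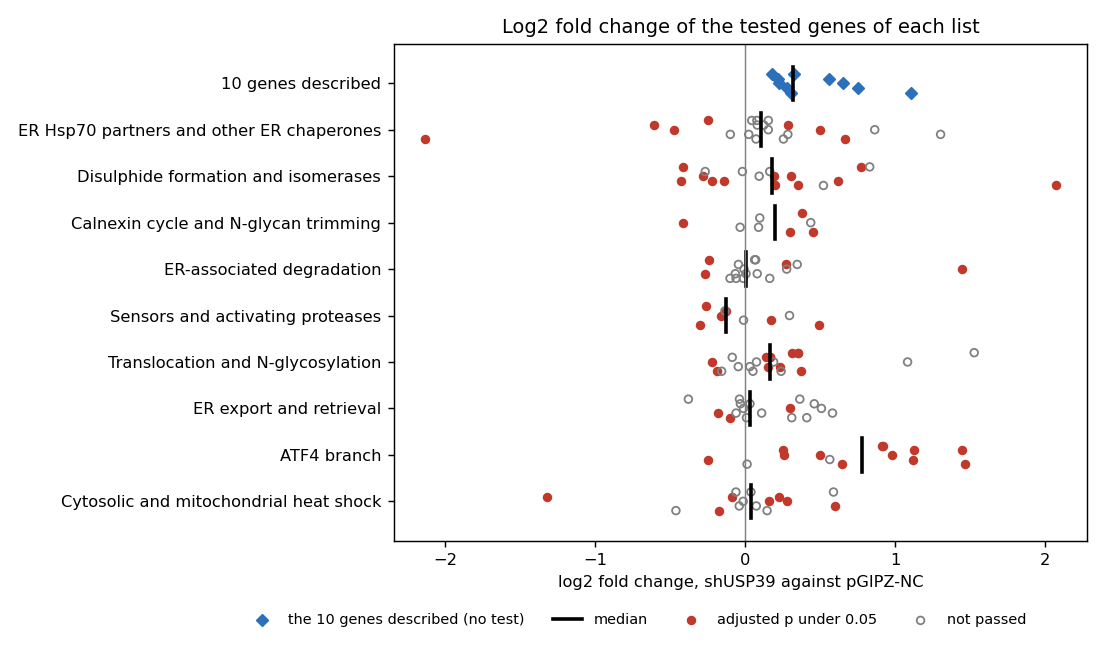
Log2 fold change (horizontal axis) of the analysed genes of each list, with genes past an adjusted p of 0.05 in red, the others as open circles, the 10 genes described as blue diamonds and the median of each list as a black bar. The 10 genes lie above 0, the ER lists hold genes on both sides, and the ATF4 branch has a median of 0.78.

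Among 20 further ER chaperones and BiP partners, 3 rose and 4 fell, with a median log2 fold change of 0.10. HYOU1, a large Hsp70-type nucleotide exchange factor of BiP, was at 22.4, 21.9 and 21.2 CPM in pGIPZ-NC and 34.9, 33.7 and 35.5 CPM in shUSP39 (log2 fold change 0.67, SE 0.08, adjusted p = 1.95e-07). DNAJB11, a soluble J-domain partner of BiP, went from 331 ± 10.5 to 467 ± 11.4 CPM (SD, n = 3; log2 fold change 0.50, edgeR adjusted p = 1.94e-11). HSPA13, an Hsp70 relative of the microsomes, rose by 0.29 on the log2 scale. These resembled HSPA5 and its partners in direction, whereas the membrane-bound J protein SEC63 fell by 0.25. The prolyl isomerase FKBP10, which acts on collagen, fell by 0.47, from 765 ± 33.9 to 551 ± 13.3 CPM. CNPY4, which affects the surface display of Toll-like receptors, fell by 0.61. FKBP7 had a log2 fold change of -2.13 at under 1 CPM, and its libraries overlapped between the groups.

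Of 18 disulphide isomerases and oxidases, 7 rose and 5 fell, with a median of 0.18. TMX4, a membrane thioredoxin-like protein, was at 7.62, 9.02 and 8.39 CPM in pGIPZ-NC and 35.6, 35.7 and 34.1 CPM in shUSP39. Its log2 fold change of 2.07 (SE 0.10) was larger than that of any of the 10 genes. ERO1B, an oxidase that recharges the isomerases, rose by 0.77, PDIA2 by 0.62 and the sulphydryl oxidase QSOX1 by 0.35 on the log2 scale. The membrane-bound TMX1 and TMX3 fell by 0.28 and 0.41, the thioredoxin-like TXNDC12 fell by 0.43 and the peroxiredoxin PRDX4 fell by 0.22. The TMX proteins thus differed in direction among themselves.

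In the calnexin cycle, which holds N-glycosylated proteins until they are folded, 3 of 8 genes rose and 1 fell. EDEM1, a mannose-trimming protein that marks glycoproteins for degradation, went from 156 ± 3.27 to 214 ± 8.31 CPM (SD, n = 3; log2 fold change 0.46, edgeR adjusted p = 2.86e-09). The glucosidase MOGS and the lectin CANX rose by 0.38 and 0.30, and UGGT2, a folding sensor of glycoproteins, fell by 0.41. In ER-associated degradation, the pathway of SEL1L, 2 of 17 genes rose and 2 fell, with a median of 0.01. DERL3, a derlin of the retrotranslocation channel, went from 1.57 ± 0.468 to 4.29 ± 0.595 CPM. SELENOS, a selenoprotein that binds derlins, rose by 0.27, and the ubiquitin ligases RNF5 and MARCHF6 fell by 0.24 and 0.27. The call for MARCHF6 was lost under upper-quartile scaling (adjusted p = 0.0659) and without pGIPZ-NC 1 (adjusted p = 0.134) or shUSP39 3 (adjusted p = 0.0986), and that for RNF5 without shUSP39 2 (adjusted p = 0.0547).

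The list for protein entry and glycosylation held the largest number of rises among the ER lists, 9 of 21 genes, with 2 falls and a median of 0.16. SEC61A1, the channel-forming subunit of the translocon, went from 1280 ± 33.6 to 1654 ± 24.9 CPM (SD, n = 3; log2 fold change 0.37, SE 0.03, edgeR adjusted p = 9.51e-11). The signal peptidase subunit SPCS3, the translocon-associated TRAM1 and the translocon-associated SSR2 rose by 0.35, 0.35 and 0.31. SPCS1, of the same signal peptidase, and DDOST, a subunit of oligosaccharyltransferase, fell by 0.22 and 0.19. In ER export and retrieval, 1 of 17 genes rose and 2 fell. KDELR3, a receptor that returns escaped chaperones to the ER, rose by 0.30, KDELR1 of the same family fell by 0.10, and the COPII coat subunit SEC23A fell by 0.18. The call for KDELR1 was lost under upper-quartile scaling (adjusted p = 0.238).

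The sensors that act on the 10 genes did not move together. ERN1 was measured at 27.0, 25.9 and 29.2 CPM in pGIPZ-NC and at 38.7, 39.4 and 37.4 CPM in shUSP39, and its log2 fold change of 0.49 (SE 0.08) passed the edgeR test at an adjusted p of 1.19e-05. ATF6 was at 184, 164 and 169 CPM in pGIPZ-NC and at 163, 153 and 146 CPM in shUSP39. It fell by 0.16 (SE 0.05, edgeR adjusted p = 0.0122), a call that was lost under upper-quartile scaling (adjusted p = 0.0713) and when pGIPZ-NC 1 (adjusted p = 0.101) or shUSP39 3 (adjusted p = 0.0924) was left out. The proteases that release ATF6 were also lower, MBTPS1 by a log2 fold change of -0.26 and MBTPS2 of -0.30. EIF2AK3 had 10.4, 13.7 and 11.1 CPM in pGIPZ-NC and 10.5, 12.9 and 11.6 CPM in shUSP39 (log2 fold change -0.01, SE 0.13, edgeR adjusted p = 0.963), and its groups overlapped. CREB3, an ER-bound factor of the ATF6 type, rose by 0.17. RTCB, the ligase that joins the XBP1 exons after the cut, fell by 0.13, a call lost under upper-quartile scaling (adjusted p = 0.128). In all, 2 of 9 genes of this list rose and 4 fell.

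For the ATF4 branch, the mRNA of ATF4 itself had a log2 fold change of 0.01 (SE 0.09, edgeR adjusted p = 0.936). The activity of PERK was not measured. Of 14 analysed genes of this branch, 11 rose and 1 fell (78.6% and 7.14%, against 16.1% and 17.5% of all genes). The rises included STC2 at 1.45, PPP1R15A at 1.12 and CHAC1 at 1.12 on the log2 scale, and the fall was PSAT1 at -0.25. The list was chosen with earlier results of these data known. DDIT3, which encodes CHOP, was at 1.76 ± 0.226 CPM in the control libraries and 2.60 ± 0.469 CPM after knockdown (SD, n = 3) and did not pass the edgeR test (adjusted p = 0.112). For comparison with folding outside the ER, 4 of 15 cytosolic and mitochondrial heat shock genes rose and 3 fell, with a median of 0.04. Of the falls, the call for HSPA4, an Hsp110-type exchange factor, was lost under upper-quartile scaling (adjusted p = 0.285), with library size only (adjusted p = 0.114) and by the DESeq2 Wald test (adjusted p = 0.052). Of the rises, DNAJB1, a J-domain partner of cytosolic Hsp70, had overlapping groups, and its call was lost without pGIPZ-NC 1 (adjusted p = 0.204). HSPA1B, a stress-induced cytosolic Hsp70 with a near-identical neighbour, HSPA1A, had a log2 fold change of 0.60, and the small heat shock gene HSPB1 one of -1.33 at 4.41 ± 0.550 CPM in pGIPZ-NC.

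Apart from the 10, the exact ERSE was present in the windows of 11 analysed genes. Of these, CANX, ERO1B, FICD and SERP1 rose and none fell, and their median was 0.30 on the log2 scale. Among all 8714 genes with a window the median was 0.00, 1336 rose (15.3%) and 1525 fell. FICD, which modifies BiP by AMPylation, rose by 0.82 (SE 0.13, edgeR adjusted p = 1.07e-05), and SERP1, a stress-associated translocon protein, rose by 0.32 (SE 0.03, edgeR adjusted p = 2.64e-08). The other 7 genes, ALG12, CRELD2, PDIA6, SYNPO, TMEM120A, TRIM5 and ZNF17, did not pass. The SEs of CRELD2, PDIA6, SYNPO, TRIM5 and ZNF17 were 0.20 to 0.75, so small changes could not be called in either direction and the median is uncertain. With at most 1 mismatch, 208 genes apart from the 10 were found, a group that includes these 11. Of the 208, 38 rose and 27 fell, with a median of 0.04, so the looser match went with a median near that of all genes. No test was applied to these groups.

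The profile of the 10 genes over the 6 libraries, taken as the mean of their standardised log2 CPM values, was compared with that of 6571 other genes of at least 5 CPM. The highest Pearson correlations were those of CALD1 (0.998) and of NKX3-2, LAP3, TBC1D9 and OSTN (0.997 each). They describe 6 points in 2 separate groups, and a high correlation did not need a large difference. LAP3 went from 254 ± 0.553 to 261 ± 0.748 CPM, a log2 fold change of 0.04, while OSTN went from 60.8 ± 5.10 to 323 ± 17.8 CPM.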

How the data were processed

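RNA-seq of A2780 cells was analysed in 3 pGIPZ-NC and 3 shUSP39 libraries, grouped by the sample labels. The authors deposited raw read counts per RefSeq messenger RNA for each library. HISAT2, Cufflinks and hg19 are named in the submitters' processing notes without a role, and the counter is not given in the sources used here. The deposited table also holds the authors' group means, fold change, log2 fold change, p-value and q-value, which were not used. The 21368 rows were summed over transcripts to 16571 genes, with 46 date-like symbols restored.

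The members and gene lists were chosen with earlier results of these data known. Genes were kept with filterByExpr of edgeR (version 4.0.16, R 4.3.3), which left 10695 genes and 99.96% of the counts. Libraries were scaled by the trimmed mean of M values and shUSP39 was compared with pGIPZ-NC by the robust quasi-likelihood test, with Benjamini-Hochberg adjustment over all analysed genes and a threshold of 0.05. SEs are the absolute log2 fold change divided by the square root of F. Named genes are the 10 members, from each list up to 4 called rises and 4 called falls of largest size, ERN1, EIF2AK3, ATF6, ATF4 and DDIT3, and the 5 genes most like the members' profile. Genes with an exact ERSE were named after their values were seen, as were PDIA6, HERPUD1 and HSPA1A. Lengths came from the canonical transcripts of GENCODE release 44, and the GRCh37 coordinates of the genes from its whole-gene entries. Promoters came from RefSeq (12 windows for the members, and 81.5% of analysed genes had a window). The alternatives were DESeq2 (1.42.0) scaling and Wald test, limma-voom (limma 3.58.1), upper-quartile and library-size scaling, other filters, the most counted transcript, a replicate block, each library left out, and shUSP39 1 as the only knockdown library. On counts simulated for this comparison with 200 of 10695 genes changed, 99.0% of 2-fold and 100% of 4-fold changes were recovered with 15 false calls. Every simulated gene had the same dispersion, and far fewer genes were changed than were called here, so these rates need not hold for the real counts. The biological coefficient of variation was 7.59%, and log2 CPM correlated at 0.988 to 0.990 within and 0.968 to 0.969 across groups. With 28294819 to 32939264 counts per library, counting error was small for the members except DNAJB9 and XBP1.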

Additional observations from a re-analysis of the deposited data

How the results depend on the processing

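All 10 genes were higher in shUSP39 under each of the 16 alternatives, with medians of 0.29 to 0.34 when a library was left out, 0.36 under upper-quartile scaling and 0.37 with shUSP39 1 as the only knockdown library, against 0.32. The number of genes called in the whole table was 3598. It was 728 when a log2 fold change over 1 was also required, 2244 with shUSP39 1 as the only knockdown library (where the spread comes from the control libraries alone and the lone library is assumed to vary like them, so the count does not measure stability), and 3095 to 3571 when a library was left out. The 47 ER pathway calls became 3 with the added fold limit and 43 to 48 when a library was left out. Upper-quartile scaling moved the share of higher calls in the whole table from 48.0% to 58.0%, and the ER split from 27 higher and 20 lower to 32 and 15. Without a filter 16571 genes were analysed, and their median was 0.12 on the log2 scale against 0.01 for the 10695 filtered genes. The median of the 10 genes was then 0.31.

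The cause of these shifts was not tested. Of the named genes, 2 near 0 changed sign. EIF2AK3 was at 0.034 under upper-quartile scaling, 0.015 with library size only, and -0.092 to 0.11 when a library was left out (0.11 without pGIPZ-NC 2 and 0.06 without shUSP39 1). ATF4 was at -0.0062 (without pGIPZ-NC 3) to 0.031 when a library was left out, -0.0018 without shUSP39 2 and -0.024 with shUSP39 1 alone. Among the other values, 797 of the named pathway genes' results stayed on their side of the threshold and 43 lost the call. Leaving out a single library ended, beside the calls given in the report, the edgeR calls of FKBP7 (adjusted p = 0.0785 without pGIPZ-NC 1 and 0.0788 without pGIPZ-NC 3), RTCB (0.0551 without pGIPZ-NC 2 and 0.104 without shUSP39 3), HSPA4 (0.179 without pGIPZ-NC 1, 0.148 without shUSP39 2 and 0.119 without shUSP39 3), DNAJB1 (0.0515 without pGIPZ-NC 2, 0.1003 without shUSP39 1 and 0.155 without shUSP39 3) and KDELR1 (0.195 without pGIPZ-NC 2, 0.0563 without pGIPZ-NC 3, 0.125 without shUSP39 2 and 0.0872 without shUSP39 3). Same-numbered libraries did not deviate together (correlations 0.0688, 0.00477 and 0.0216). With the replicate block 3981 genes were called, of which 3579 were called without it, ER calls were 49 and the median of the 10 genes was 0.317. Transcript shares had no alternative values, since each of the 10 genes had 1 row. Depth limits XBP1 and DNAJB9 most, and near-identical genes and genes with several transcripts are uncertain where shared reads may not have been counted.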
